A study of Mus musculus with 1646 samples.

Results

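Counts of 10 genes of vasoactive signalling were followed through the mesenchymal cells of the mouse colon: the endothelin receptors *Ednra* and *Ednrb*, angiotensinogen (*Agt*) and its receptor *Agtr1a*, the adrenergic receptors *Adra1d* and *Adra2a*, the thrombin receptor *F2r*, the thromboxane receptor *Tbxa2r*, the ATP-gated channel *P2rx1* and the sphingosine 1-phosphate receptor *S1pr3*. They were found by symbol in the GENCODE vM21 annotation, and all 10 were present among the 46517 genes of the table. The data comprised 1646 single cells, each a library of its own, from adult male mice aged 10 to 20 weeks on the C57Bl6/J background, and no group was treated. Sorting left out CD31-positive endothelial cells and drew on 4 reporter lines, each named for the gene whose promoter drives its fluorescent protein, 3 of them transgenes and PdgfraGFP a knock-in: PdgfrbGFP (761 cells, 4 plates), Acta2GFP (567 cells, 2 plates), Cspg4dsRED (91 cells, 1 plate) and, with the remaining cells, PdgfraGFP (2 plates). Each cell carried the number of 1 of 8 clusters, which the study drew and named: fibroblasts of the crypt base (cluster 7), base to middle (5), middle (1), middle to apex (6) and apex (2), pericytes (4), vascular smooth muscle cells, here SMC (3), and interstitial SMC (8).

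The tone of a vessel and of the muscle around it is set by ligands that act on receptors of mural cells, the pericytes of capillaries and the SMC of larger vessels. Endothelin, angiotensin II, noradrenaline, thrombin, thromboxane and sphingosine 1-phosphate act on receptors coupled to G proteins, many of which raise calcium or activate the kinase ROCK and thereby contract the cell, whereas ATP released from sympathetic nerves opens the P2X channel directly. Angiotensinogen is the secreted precursor from which renin and angiotensin-converting enzyme release angiotensin II. The same receptors also occur on fibroblasts, where they are known for roles in growth, migration and matrix production.

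The reference sequence just before the start of transcription is shown for 4 genes, as examples of the genes high in vascular SMC (*P2rx1*, *S1pr3*) and of those high in both apex fibroblasts and interstitial SMC (*Agt*, *F2r*). The windows were taken from RefSeq on GRCm38.p6, run 5' to 3' on the gene's strand toward the RefSeq start, and, as printed, exclude bases that GENCODE transcribes, the last 42 for *P2rx1* and the last 21 for *F2r*. Distances are counted from the RefSeq start. RefSeq windows were at hand for 8 of the 10 genes, in 9 windows of 250 bases, and not for *Agtr1a* and *Adra1d*. Capitals mark the letters searched for. The window of *P2rx1* (chr11:72998895-72999102, + strand), whose counts were mostly in vascular SMC, held none of them.
P2rx1: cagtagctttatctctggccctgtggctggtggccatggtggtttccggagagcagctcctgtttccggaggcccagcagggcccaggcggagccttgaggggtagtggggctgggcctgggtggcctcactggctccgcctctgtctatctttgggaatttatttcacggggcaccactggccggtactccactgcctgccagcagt
The window of *S1pr3* (chr13:51408368-51408617, + strand) held GGGCGG, from 20 to 15 bases before the start.
S1pr3: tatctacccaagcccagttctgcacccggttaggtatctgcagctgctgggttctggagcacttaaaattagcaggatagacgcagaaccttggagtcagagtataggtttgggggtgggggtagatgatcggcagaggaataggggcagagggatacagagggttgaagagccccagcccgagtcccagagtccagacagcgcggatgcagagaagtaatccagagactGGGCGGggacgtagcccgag
The window of *Agt* (chr8:124569707-124569956, - strand) held TATAAA, from 30 to 25 bases before the start.
Agt: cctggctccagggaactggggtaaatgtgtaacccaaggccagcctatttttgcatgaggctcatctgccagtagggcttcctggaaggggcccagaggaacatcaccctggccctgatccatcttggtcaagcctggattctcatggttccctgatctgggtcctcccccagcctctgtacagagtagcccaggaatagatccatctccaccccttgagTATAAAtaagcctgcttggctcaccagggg
The window of *F2r* (chr13:95618488-95618716, - strand) held TGANTCA, and GGGCGG on the reverse strand, from 49 to 44 bases before the RefSeq start, which lies 21 bases past the end printed.
F2r: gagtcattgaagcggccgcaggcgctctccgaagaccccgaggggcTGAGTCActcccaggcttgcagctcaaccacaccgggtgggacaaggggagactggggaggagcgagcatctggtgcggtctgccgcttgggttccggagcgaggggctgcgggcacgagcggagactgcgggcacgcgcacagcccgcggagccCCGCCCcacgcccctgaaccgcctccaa

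Both strands were searched. TATAAA was in 12.4% of the 32851 RefSeq windows and in those of *Agt* and *Adra2a*. GGGCGG was in 32.7% of all windows and in those of *Adra2a*, *F2r* and *S1pr3*. CCAAT was in 33.8% of all windows and in those of *Ednrb* and *Tbxa2r*, and TGANTCA in 6.75% and in that of *F2r*. The CArG box, the element bound by serum response factor in many SMC genes, was in 1.47% of all windows and in 0 windows of these genes. The windows not printed were searched whole, and those of *Adra2a* and *Ednrb* lie inside the gene as GENCODE annotates it. A match describes the letters of the window and nothing more.

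Per cell, between 47598 and 1494292 counts fell on genes, with a median of 248628, and by line the medians ran from 113721 (Cspg4dsRED) to 322654 (PdgfraGFP). A level is the mean over cells of counts per 500000 counts on genes, computed per cluster and line where at least 10 such cells were present, and cluster values are means ± SD over these lines. Interstitial SMC reached 10 cells in Acta2GFP alone, whose tissue was also digested with elastase, so cluster, line and enzyme cannot be told apart there. The other 4 interstitial SMC came from PdgfrbGFP and entered sums only in an alternative with at least 3 cells per sum. In that alternative *Agt*, *F2r*, *P2rx1* and *S1pr3* kept their calls against vascular SMC, given below. The labels name no mouse, so p-values measure the spread between lines or plates, which may be technical. The clusters were drawn from the same counts, so the tests below are not independent of the groups. The markers of pericytes (*Rgs5* at 3262, *Kcnj8* at 489), interstitial SMC (*Hhip* at 1339) and apex fibroblasts (*Tnc* at 1972) were highest in the clusters so named, except *Des*. This gene of the interstitial SMC list was at 200.5 in interstitial SMC, against 1159 in vascular SMC and 698.8 in pericytes. The vascular SMC list (5 markers, *Myh11* among them) did not separate the kinds of SMC, summing to 7367 in vascular and 9373 in interstitial SMC, whereas *Notch3*, a gene of vascular mural cells, was at 329.6 and 0.229. Of the crypt base list (5 markers), *Cd34* was highest in cluster 7 (1293), but *Wnt2b*, *Sfrp1* and *Grem1* were lower there than in the middle, and the summed list was 1527 at the base, 1595 from base to middle and 1548 in the middle. Markers of other cells were at these levels: the endothelial list (8 genes) summed to 573 in pericytes and 377.02 in vascular SMC, mostly *Esam*, to 198.7 at the crypt base, mostly *Tek*, and to between 25.9 and 160.4 in the other 5 clusters, with *Cdh5* at most 0.687. The leukocyte list (5 genes) summed to at most 13.4, mostly *Lyz2*, with *Ptprc* at most 0.251, and the list of interstitial cells of Cajal (3 genes) to between 3.69 and 342.7, the latter in pericytes with *Ano1* at 294.96, and *Kit* was at most 8.85. The list of enteric glia (5 genes) summed to 0.831 to 3.92.

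**Figure D1:**
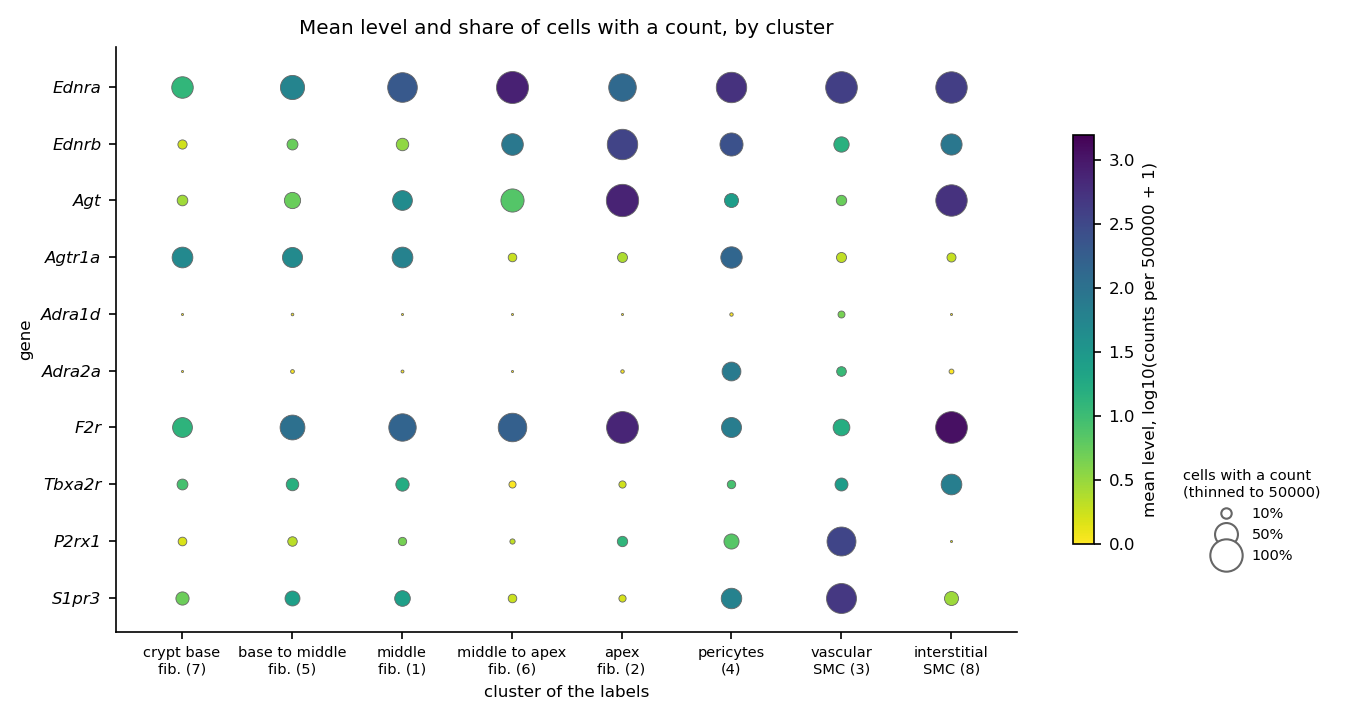
Mean level of each gene (colour, log10 of counts per 500000 plus 1) and share of cells with a count after thinning each cell to 50000 counts (area of the circle) in the 8 clusters. *P2rx1* and *S1pr3* peak in vascular SMC, *Agtr1a* and *Adra2a* in pericytes, *Agt* and *Ednrb* in apex fibroblasts, *F2r* and *Tbxa2r* in interstitial SMC, and *Ednra* is spread over most clusters.

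*Ednra*, which binds endothelin-1 and mediates its constrictor effect, was the most widely expressed of the 10 genes. Its level in mural clusters was 349.3 in PdgfrbGFP and 749 in Cspg4dsRED pericytes, 344.1, 398.8 and 478.3 in vascular SMC of PdgfrbGFP, Acta2GFP and Cspg4dsRED, and 411.3 in interstitial SMC. All 6 values were above those of every fibroblast cluster except the middle to apex one. Along the fibroblast order it was 11.2 ± 8.99 at the crypt base (n = 3), 56.1 ± 27.1 from base to middle (n = 4), 204.8 ± 19.1 in the middle (n = 3), 813 ± 210 from middle to apex (n = 2) and 130.7 ± 20.5 at the apex (n = 3). The level thus peaked one step before the apex, at 665 in Acta2GFP and 962 in PdgfraGFP, and the first of these lay below the 749 of Cspg4dsRED pericytes. In the same cluster the mural marker list (6 genes, none at 0) summed to 1135 (range over lines 576 to 1695), against 275.6 in the middle and 178.8 at the apex. *Acta2* (909) and *Tagln* (220.2) made up most of it. The other genes of the list were lower there than in the middle: *Rgs5* (3.01 against 51.5), *Des* (2.53 against 30.3), *Notch3* (0.249 against 2.75) and *Mcam* (0.885 against 1.19). The part of the list in the *Ednra* peak was not tested. On GRCm38, the build of all positions given, *Ednra* (ENSMUSG00000031616) lies on chromosome 8 (77663031 to 77724464, - strand) and shares 91 exonic bases with the antisense transcript *4933431K23Rik*. No source used here states whether reads were counted by strand, so reads of that stretch cannot be told apart.

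In edgeR's quasi-likelihood test, *Ednra* was lower in fibroblasts than in mural cells (log2 fold change -1.77, SE 0.29, adjusted p = 0.00658), a call lost without the Acta2GFP line (adjusted p = 0.0566). Apex exceeded crypt base fibroblasts by a log2 fold change of 3.81 (SE 0.67, adjusted p = 0.00231), a call lost without PdgfrbGFP (adjusted p = 0.0588). No single step of the order passed the test, with 2.34 from crypt base to base-middle (adjusted p = 0.366), 1.98 to the middle (0.223), 1.61 to the middle to apex cluster (0.243) and -2.13 to the apex (0.108) on the log2 scale. Pericytes and vascular SMC differed by 0.35 (SE 0.43, adjusted p = 0.877), and the sign turned under some settings. Cell by cell, 86.7% of the middle to apex fibroblasts held at least 100 counts per 500000, against 57.1% of middle, 41.98% of apex and 4.48% of crypt base fibroblasts.

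*Ednrb*, the receptor that binds all endothelins alike and also clears the peptide, was highest in apex fibroblasts and pericytes, which held 76.5% of the summed cluster means. In apex fibroblasts it reached 329.5, 372.1 and 371.7 in PdgfrbGFP, Acta2GFP and PdgfraGFP, and in pericytes 223.6 in PdgfrbGFP and 279.4 in Cspg4dsRED. Every apex value was above both pericyte values, and all were above the 83.3 of interstitial SMC and the 6.69 to 23.5 of vascular SMC. Middle to apex fibroblasts were divided between lines, at 22.6 in Acta2GFP and 142.8 in PdgfraGFP. The other fibroblast clusters were at 13.02 or less. The gene (ENSMUSG00000022122) spans 103814625 to 103844402 of chromosome 14 on the - strand and overlaps no other annotated gene.

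The log2 fold change of *Ednrb* was 9.37 in apex against crypt base fibroblasts (SE 1.31, adjusted p = 0.000488), past the threshold in all 10 alternatives. It was 5.15 in middle to apex against middle fibroblasts (SE 1.11, adjusted p = 0.0292), a call lost without any one of Acta2GFP, PdgfraGFP and PdgfrbGFP and under limma (highest adjusted p = 0.213). In pericytes against vascular SMC it was 4.35 (SE 0.63, adjusted p = 0.0104), lost without Acta2GFP, with sums of at least 3 cells and under limma (highest adjusted p = 0.202). Pericyte levels on the 3 plates with at least 10 such cells were 174.007, 311.3 and 279.4, the first 2 from PdgfrbGFP. The cells behind these means were spread differently. In apex fibroblasts the median cell held 326.3 and 76.3% of cells reached 100, whereas in pericytes the median was 5.64 and 29.6% of cells reached 100, close to the 26.8% of interstitial SMC and the 26.7% of middle to apex fibroblasts.

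*Agt* was high in apex fibroblasts and interstitial SMC. Apex fibroblasts held 601, 942 and 782 in PdgfrbGFP, Acta2GFP and PdgfraGFP, and interstitial SMC 555. These 4 values were above all others by a wide margin, the next being 82.5 in middle fibroblasts of PdgfrbGFP. Just below the apex in the order, the middle to apex fibroblasts were at 3.62 and 8.85, against 82.5, 26.4 and 28.9 in the middle fibroblasts. This step did not pass the test (log2 fold change -3.27, adjusted p = 0.115), it turned to 0.10 under limma, and the median cell was higher in the middle to apex cluster (4.34 against 2.45). Pericytes were at 10.5 and 42.2, vascular SMC at 10.1, 1.99 and 0.928. The gene (ENSMUSG00000031980) lies on chromosome 8 (124556534 to 124569706, - strand, 1891 exonic bases).

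The log2 fold change of *Agt* was 8.95 in apex against crypt base fibroblasts (SE 1.06, adjusted p = 0.000118), past the threshold in all 10 alternatives, and 7.75 in apex against middle to apex fibroblasts (SE 1.22, adjusted p = 0.00362), lost without Acta2GFP (adjusted p = 0.182). For interstitial against vascular SMC it was 7.31 (SE 1.02, adjusted p = 0.00589), a value that rests on 1 interstitial sum taken to vary like the others, and with the line as a block it no longer passed (adjusted p = 0.0621). Between middle and base to middle fibroblasts it was 3.34 (SE 0.74, adjusted p = 0.0659). At the apex, 99.2% of cells held at least 100 counts per 500000, and 49 of 56 interstitial SMC (87.5%). In the middle cluster 10.1% of cells (49 cells) did, the median cell held 2.45, and the tenth of cells with most *Agt* held 89.4% of its summed level. The apex marker list (7 markers, none at 0) summed to 302.1 in interstitial SMC against 4737 in apex fibroblasts, and the interstitial SMC list (5 markers, none at 0) to 486 in apex fibroblasts against 8791 in its own cluster. The fibroblast marker list (6 genes, none at 0) summed to 1976 in interstitial and 565 in vascular SMC, and its part in the differences of *Agt* and *F2r* between them was not tested.

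*Agtr1a*, the angiotensin II type 1a receptor, peaked in pericytes, where *Agt* was low. Pericytes held 138.2 in PdgfrbGFP and 143.2 in Cspg4dsRED. In the 3 fibroblast clusters farthest from the apex it was 32.1, 38.7 and 74.5 (crypt base), 43.95, 28.2 and 114.5 (base to middle) and 55.2, 67.1 and 62.9 (middle) in PdgfrbGFP, Acta2GFP and PdgfraGFP. These 3 clusters overlapped one another, and all 9 values were below both pericyte values. Cspg4dsRED differed, with 0 of its 28 fibroblasts holding a count, which allows a share of up to 10.7%. Middle to apex fibroblasts were at most 1.05, apex fibroblasts at most 3.73, vascular SMC at most 2.46 and interstitial SMC at 0.888. The gene (ENSMUSG00000049115) spans 30336441 to 30382867 of chromosome 13 (+ strand).

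Pericytes exceeded vascular SMC by a log2 fold change of 7.00 for *Agtr1a* (SE 1.28, adjusted p = 0.0315), lost under limma (adjusted p = 0.0968). The fibroblast marker list (6 genes, none at 0) summed to 1816 in pericytes (1120 and 2511 in the 2 lines) and 565 in vascular SMC, and its part in this difference was not tested. Apex were below crypt base fibroblasts (-4.85, SE 1.36, adjusted p = 0.0487), a call lost without each of Acta2GFP, PdgfraGFP and PdgfrbGFP and with sums of at least 3 cells (highest adjusted p = 0.399). Middle to apex against middle fibroblasts gave -6.69 (SE 1.84, adjusted p = 0.0843). Over single pericytes the level was uneven: 52.1% of cells had a count (95% Clopper-Pearson interval 43.6 to 60.6%), the median was 1.59 and 30.3% of cells reached 100. Of the 74 pericytes with a count of *Agtr1a*, 55.4% also had a count of *Adra2a*, against 38.2% of the other 68, whose median depth was 174196 counts against 221770, and the part of depth in this was not tested.

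**Figure D2:**
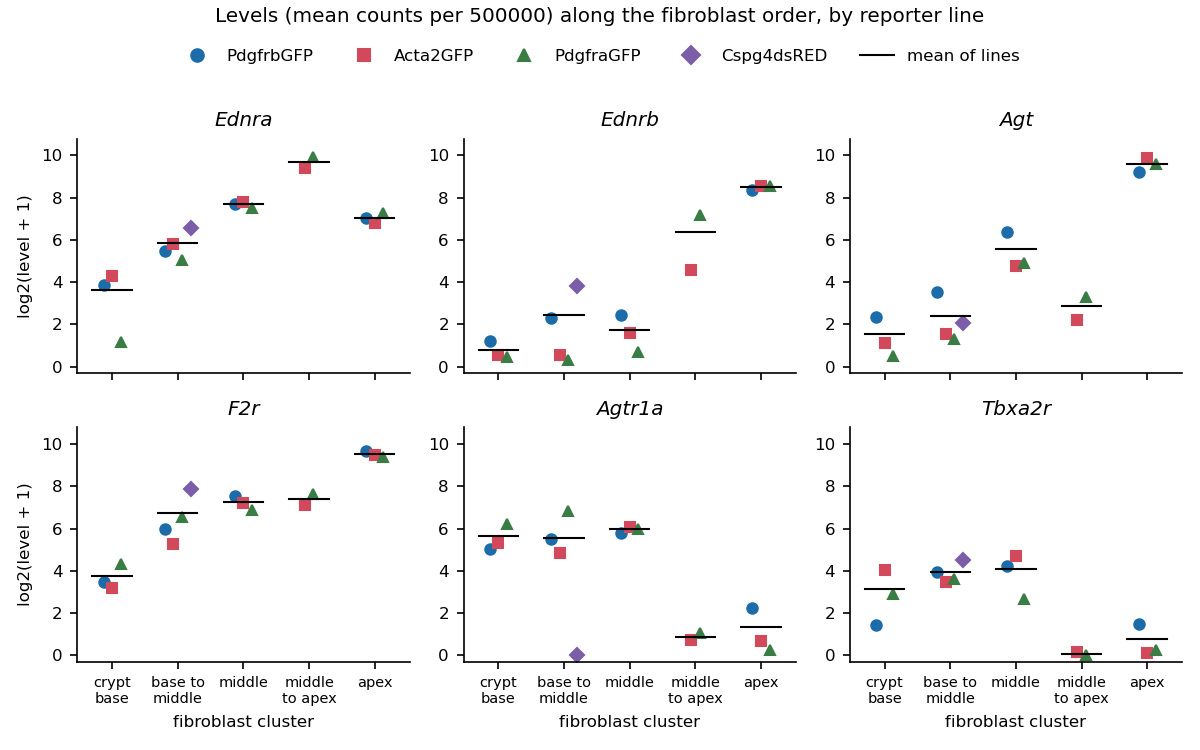
Level along the fibroblast clusters from crypt base to apex, as log2(level + 1) with the level in counts per 500000, 1 point per reporter line with at least 10 cells and a bar at the mean, for 6 of the genes. *Agt*, *Ednrb* and *F2r* are highest at the apex, *Ednra* peaks 1 cluster earlier, and *Agtr1a* and *Tbxa2r* are low in the last 2 clusters.

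*Adra1d* and *Adra2a*, receptors for noradrenaline of which the first contracts vascular SMC and the second inhibits adenylyl cyclase, were the 2 genes with the fewest cells. *Adra1d* was at 6.13 in PdgfrbGFP, 4.48 in Acta2GFP and 0.0 in Cspg4dsRED vascular SMC, where 10 cells (7.09%) had a count. Levels elsewhere were at most 0.209. The gene (ENSMUSG00000027335) shares exonic bases with the antisense gene *Gm14285* on chromosome 2 (131545850 to 131562283, - strand), so its counts are uncertain. Interstitial SMC had 0 counts, and pooled vascular SMC were at least 46.8-fold higher in PdgfrbGFP and 34.2-fold in Acta2GFP, taking 3 counts over the interstitial sum as the floor. Fibroblasts against mural cells gave a log2 fold change of -6.16 for *Adra1d* (SE 1.88, adjusted p = 0.0889). Nearly all counts behind this value came from mural cells of PdgfrbGFP and Acta2GFP, and the mural sum of Cspg4dsRED held 0 counts. The gene entered this comparison mainly through those mural counts, so a negative value was in part built in.

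*Adra2a* was a pericyte gene, at 102.4 in PdgfrbGFP and 54.02 in Cspg4dsRED. Vascular SMC followed at 13.9, 1.24 and 15.2 in PdgfrbGFP, Acta2GFP and Cspg4dsRED, below both pericyte values. Fibroblast levels were at most 0.105, and the fibroblasts of PdgfrbGFP, Acta2GFP, PdgfraGFP and Cspg4dsRED held 38, 3, 0 and 2 counts in all. Of pericytes, 47.2% (interval 38.8 to 55.7%) had a count and 19.7% reached 100. Relative to mural cells, fibroblasts had a log2 fold change of -8.92 (SE 1.71, adjusted p = 0.0143), lost without Cspg4dsRED and without PdgfrbGFP (highest adjusted p = 0.140). The gene passed the filter on low counts in this comparison through its mural sums, so a difference was built in. The interstitial sum held 0 counts, so pericytes were at least 471.3-fold higher in PdgfrbGFP and 165.9-fold in Cspg4dsRED by the same floor. Pericytes against vascular SMC gave 2.90 (SE 1.01, adjusted p = 0.310). *Adra2a* (ENSMUSG00000033717) is a gene of 1 exon on chromosome 19 (54044151 to 54048982, + strand), and it did not pass the filter on low counts among fibroblasts.

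*F2r*, the protease-activated receptor cleaved by thrombin, had the highest single level of the 10 genes, 1159 in interstitial SMC. Apex fibroblasts were next at 817, 719 and 664 in PdgfrbGFP, Acta2GFP and PdgfraGFP, and no other value was above 230.5. Crypt base fibroblasts were at 9.99, 8.03 and 19.3, base to middle ones at 62.8, 37.6, 92.3 and, in Cspg4dsRED, 230.5, middle ones at 186.6, 147.6 and 118.1, and middle to apex ones at 135.99 and 198.5. The 3 clusters between base and apex overlapped one another, and neither end of the order overlapped with them. Vascular SMC were at 10.1, 23.7 and 12.2 and pericytes at 21.5 and 120.8.

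For *F2r* the log2 fold change was 6.32 in apex against crypt base fibroblasts (SE 0.64, adjusted p = 5.7e-05), past the threshold in all 10 alternatives. It was 3.43 in base to middle against crypt base fibroblasts (SE 0.54, adjusted p = 0.0382), lost without any one of Acta2GFP, PdgfraGFP and PdgfrbGFP and under limma (highest adjusted p = 0.745). Interstitial against vascular SMC gave 6.71, a value that rests on 1 interstitial sum taken to vary like the others, and the call was lost with the line as a block. Interstitial SMC were high on both Acta2GFP plates, at 1278 (40 cells) and 761 (12 cells) for *F2r* and 565 and 519 for *Agt*. Over single cells 96.2% of apex fibroblasts, 92.9% of interstitial SMC and 44.7% of middle fibroblasts reached 100. Both *Agt* and *F2r* had a count in 99.2% of apex fibroblasts and in 52 of 56 interstitial SMC. Summed over 12 genes known to respond to dissociation, such as *Fos* and *Jun*, apex fibroblasts were at 12898 and crypt base fibroblasts at 3902, and the part of this in the apex differences of *F2r*, *Agt*, *Ednrb* and *Ednra* was not tested. *F2r* (ENSMUSG00000048376) spans 95601803 to 95618487 of chromosome 13 (- strand).

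*Tbxa2r*, the receptor through which thromboxane A2 contracts SMC and activates platelets, was at 68.8 in interstitial SMC and at 32.9, 39.03 and 9.25 in vascular SMC of PdgfrbGFP, Acta2GFP and Cspg4dsRED. Pericytes differed between lines, 15.3 in PdgfrbGFP and 0.274 in Cspg4dsRED. In the crypt base, base to middle and middle fibroblasts it ranged from 1.73 to 24.96, and in the last 2 clusters of the order from 0.0 to 1.76. No order could be read among the first 3 fibroblast clusters, which overlapped. In the lines with at least 10 cells, middle to apex fibroblasts held 1 count against 6138 in the middle ones, a pooled ratio of 507 with a counting interval of 90.9 to 20015, and the test passed (adjusted p = 0.0418) but not in 6 of 10 alternatives, among them those without Acta2GFP, without PdgfraGFP and without PdgfrbGFP (highest adjusted p = 0.279). Over all cells, lines with fewer than 10 included, 4 of 45 middle to apex fibroblasts had a count and the mean was 0.325, against 18.6 in the middle, a smaller difference than the pooled ratio. On single cells, 14 of 56 interstitial SMC and 11.3% of vascular SMC reached 100. Platelet markers (5 genes) summed to between 1.46 and 10.79 over the clusters, with *Pf4* at most 2.77. The gene (ENSMUSG00000034881) lies on chromosome 10 (81328731 to 81335172, + strand).

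*P2rx1*, the ATP-gated cation channel of arterial SMC, marked vascular SMC. The level was 342.6 in PdgfrbGFP, 397.3 in Acta2GFP and 319.7 in Cspg4dsRED, and over the 5 plates with at least 10 such cells it ran from 318.9 to 421.003. Pericytes were at 9.74 and 2.13, interstitial SMC at 0.401 and apex fibroblasts at 11.5, 10.4 and 13.7. Vascular SMC thus stood far above every other cluster, and the other clusters overlapped in part. Over all 5 fibroblast clusters it was 3.09 ± 1.56 (n = 4), against 147.99 ± 9.14 in mural cells (n = 3). The gene (ENSMUSG00000020787) spans 72999103 to 73015200 of chromosome 11 on the + strand.

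The log2 fold change of *P2rx1* was -6.36 in fibroblasts against mural cells (SE 0.57, adjusted p = 0.000463), -7.24 in pericytes against vascular SMC (SE 0.67, adjusted p = 0.000883) and -9.33 in interstitial against vascular SMC (SE 1.04, adjusted p = 0.00277). The first 2 calls held in all alternatives run, and the third rests on 1 interstitial sum taken to vary like the others, which no alternative could leave out. A count was found in 86.5% of vascular SMC (interval 79.8 to 91.7%), the median cell held 305.6 and 67.4% reached 100. The share of crypt base, base to middle and middle fibroblasts with a *P2rx1* count ran from 0% to 57.7% over the 9 plates, whose mural cells made up 0.645% to 77.6% of cells and whose median depth ran from 113721 to 725044 counts. In order of rising mural share (0.645%, 1.39%, 3.10%, 3.98%, 10.1%, 20.5%, 60.3%, 69.2% and 77.6%), the share of these fibroblasts with a count was 2.73%, 0%, 29.7%, 8.77%, 34.3%, 3.11%, 19.6%, 34.6% and 57.7%. The part of mural cells and depth in these counts was not tested.

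*S1pr3*, a sphingosine 1-phosphate receptor that couples to Gq and G12, was also highest in vascular SMC, at 425.4, 436.3 and 576 in PdgfrbGFP, Acta2GFP and Cspg4dsRED. In pericytes it was at 53.7 and 63.8, and in base to middle and middle fibroblasts from 15.9 to 31.4. These lower means were carried by few cells: the median pericyte held 3.51 and the tenth of pericytes with most *S1pr3* held 86.5% of the sum, and in both fibroblast clusters the median was 0 and the same part of cells held 94.4%. The crypt base was at 2.15, 10.7 and 0.0, and the last 2 fibroblast clusters were at 1.501 or less, like interstitial SMC at 1.91. Vascular SMC, pericytes and all other clusters thus occupied 3 ranges that did not overlap. *S1pr3* (ENSMUSG00000067586) lies on chromosome 13 (51408639 to 51422797, + strand) and shares 45 exonic bases with the antisense gene *Gm32834*.

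Fibroblasts against mural cells gave a log2 fold change of -4.25 for *S1pr3* (SE 0.49, adjusted p = 0.00154) and interstitial against vascular SMC -7.62 (SE 0.98, adjusted p = 0.00411), the first past the threshold in all alternatives run. Pericytes exceeded interstitial SMC by 5.20 (SE 0.87, adjusted p = 0.0234), lost under limma (adjusted p = 0.517). Both values against interstitial SMC rest on its 1 sum, taken to vary like the others. For *S1pr3*, pericytes against vascular SMC gave -2.42 (SE 0.53, adjusted p = 0.0740). In vascular SMC 95.7% of cells had a count, 79.4% reached 100 (12.7% in pericytes), and 82.98% of cells had counts of both *S1pr3* and *P2rx1*. The dissociation genes summed to 10157 in vascular SMC and 2102 in pericytes, and their part in the differences between these clusters was not tested.

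**Figure D3:**
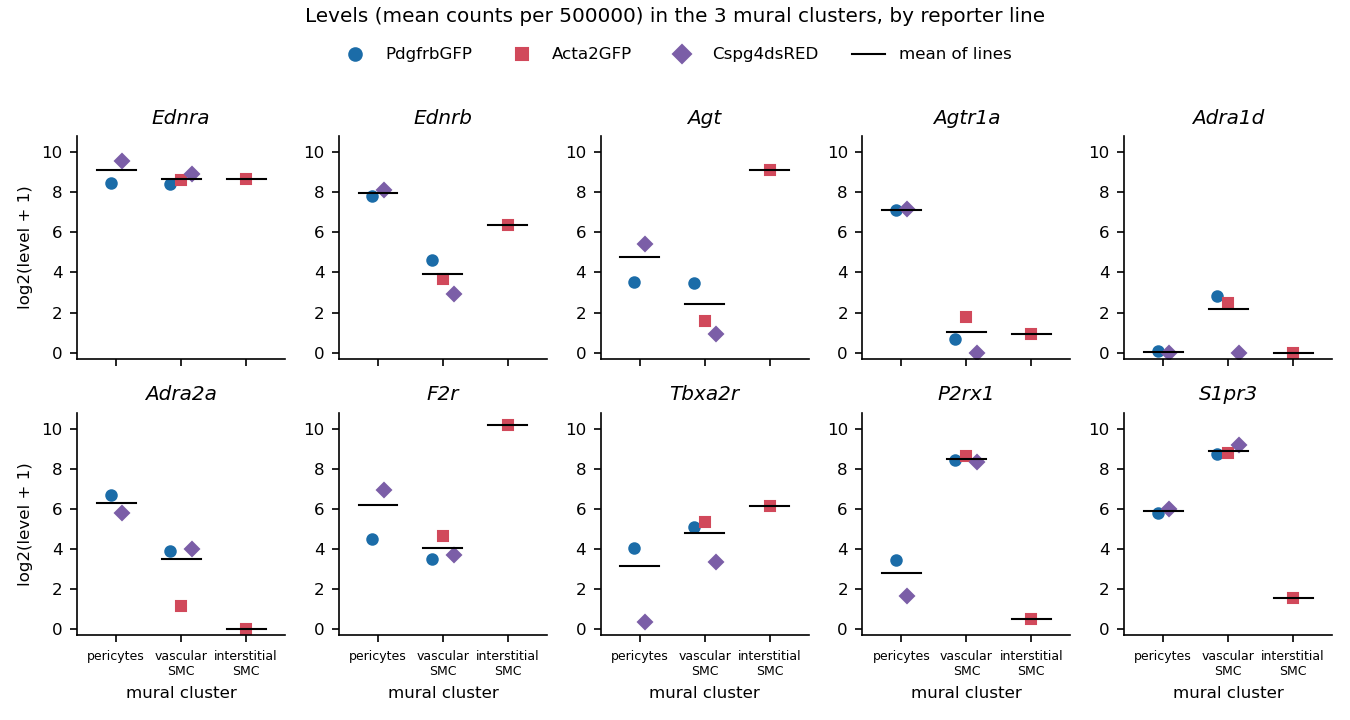
Level of each gene in pericytes, vascular SMC and interstitial SMC, as log2(level + 1) with the level in counts per 500000, 1 point per reporter line with at least 10 cells and a bar at the mean. Vascular SMC stand apart for *P2rx1* and *S1pr3*, pericytes for *Agtr1a* and *Adra2a*, and the 1 interstitial SMC value for *Agt* and *F2r*.

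Counted by comparison, 4 of the 10 genes passed the test between fibroblasts and mural cells (*Ednra*, *P2rx1*, *S1pr3* and *Adra2a*, the last through the filter by its mural sums alone), all lower in fibroblasts, in a comparison where 6.57% of all 19173 genes tested passed. *Agt*, *F2r*, *Ednrb* and *Agtr1a* had log2 fold changes between -0.83 and 0.08 there, and their levels in single clusters show that each class held both high and low clusters. Between pericytes and vascular SMC 3 genes passed (*Ednrb* and *Agtr1a* higher in pericytes, *P2rx1* lower), against 0.668% of all genes. With 1 interstitial sum, taken to vary like the others, interstitial differed from vascular SMC in 4 genes (*Agt* and *F2r* higher, both lost with the line as a block, *P2rx1* and *S1pr3* lower) against 1.04%, and pericytes from interstitial SMC in 1 gene (*S1pr3* higher) against 0.600%. Apex differed from crypt base fibroblasts in 5 of 9 genes tested (*F2r*, *Agt*, *Ednrb* and *Ednra* higher, *Agtr1a* lower), against 5.46% of all genes. Of the steps of the order, base to middle against crypt base passed for 1 gene (*F2r*) against 0.0370%, middle to apex against middle for 2 (*Ednrb* higher, *Tbxa2r* lower) against 1.86%, and apex against middle to apex for 1 (*Agt*) against 2.10%. For middle against base to middle edgeR called 0 of the 9 genes against 0.412% of all genes, where 1403 genes had an unadjusted p under 0.05 and DESeq2 called 1 of the genes followed. These comparisons share clusters, so their counts are not independent.

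**Figure D4:**
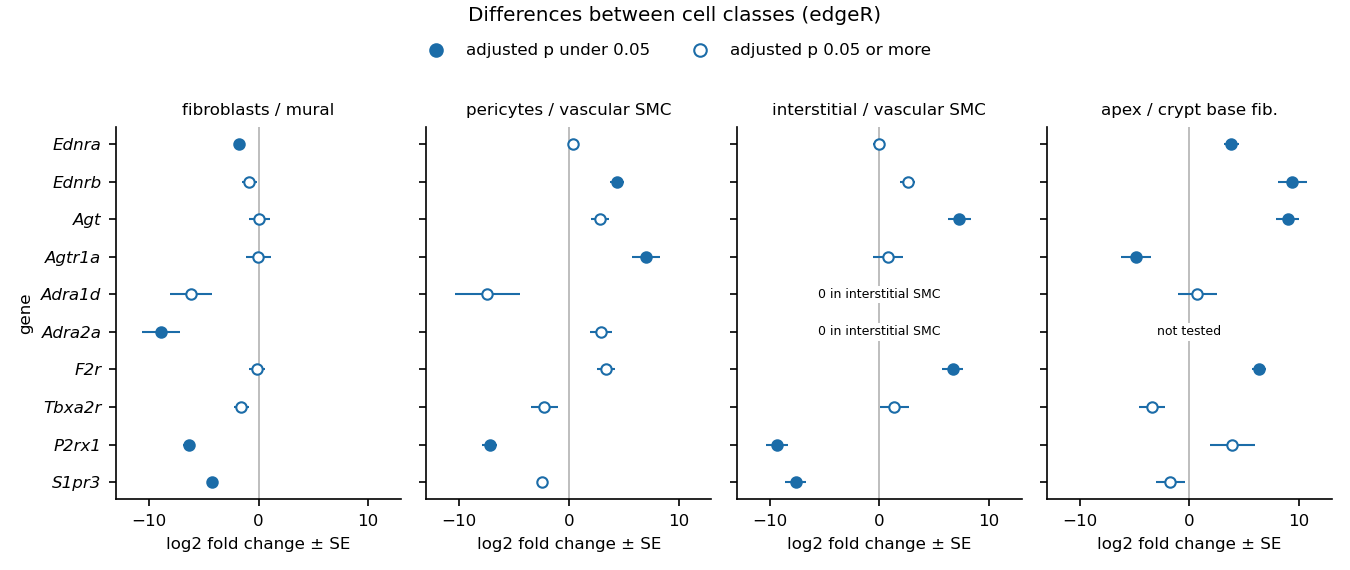
Log2 fold change with its SE (edgeR) of each gene in 4 comparisons, the first-named group over the second, with filled points for an adjusted p under 0.05. *P2rx1* is lower in fibroblasts, in pericytes and in interstitial SMC, at -6.36, -7.24 and -9.33, and *Agt* is higher in interstitial SMC and at the apex, at 7.31 and 8.95, while genes at 0 counts in interstitial SMC carry no point.

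The leading genes of each cluster were read from levels divided by exonic length (counts per 500000 per kilobase). In pericytes *Ednra* (100), *Ednrb* (58.95) and *Agtr1a* (50.5) led, in vascular SMC *P2rx1* (134.6), *S1pr3* (107.4) and *Ednra* (74.3), and in interstitial SMC *F2r* (347.3), *Agt* (293.3) and *Ednra* (75.1), the same 3 genes as in middle fibroblasts at lower levels (*F2r* 45.2, *Ednra* 37.4, *Agt* 24.3). Among fibroblasts, *Agtr1a* (17.4) led at the crypt base, *F2r* from base to middle (31.7) and in the middle, *Ednra* (148.6) in the middle to apex cluster and *Agt* (410) at the apex. At least 5 counts per 500000 were found for 9 of the 10 genes in pericytes, 7 in vascular SMC, 6 in middle fibroblasts and 4 or 5 in each other cluster. The pericyte means of *P2rx1* (5.93) and *Tbxa2r* (7.80) rested on few cells, as the tenth of pericytes with most held 81.3% and 99.2% of the sum.

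**Figure D5:**
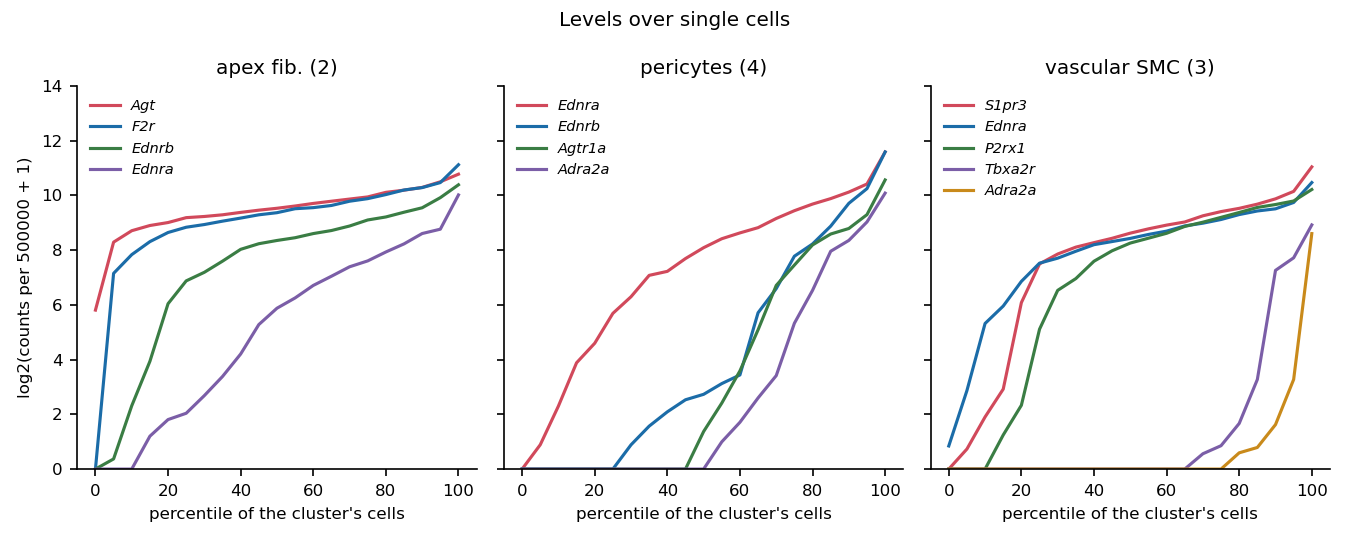
Level in single cells, as log2(counts per 500000 + 1), at each percentile of the cells of apex fibroblasts, pericytes and vascular SMC, with 1 curve per gene. The curve of *Agt* is high over nearly all apex fibroblasts, with 99.2% of cells at 100 or more, whereas *Ednrb* and *Agtr1a* in pericytes rise late, with 29.6% and 30.3% of cells at 100 or more.

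Reporter lines were compared within a cluster, with plates as samples. For base to middle fibroblasts, Acta2GFP against PdgfrbGFP, edgeR called 0 of the 10 genes (0.00% of 17829 genes, of which 707 had an unadjusted p under 0.05, and DESeq2 called 71). *F2r* (log2 fold change -1.43, SE 0.56) and *Adra1d* had an unadjusted p under 0.05 there, and the adjusted p was 0.992 for both. In vascular SMC 0 of the 10 genes were called (0.00% of 14724 genes, 896 with an unadjusted p under 0.05 and 2.22% of genes called by DESeq2). The differences of *P2rx1* (0.33, SE 0.30), *S1pr3* (0.41, SE 0.35) and *Ednra* (0.40, SE 0.37) were near their standard errors. Line and elastase cannot be told apart in these comparisons.

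Other genes of the same pathways were taken from 10 fixed lists and read in fibroblasts against mural cells, where 6.57% of all genes passed. Of the endothelin list (7 genes, 6 tested) *Edn1*, which encodes endothelin-1, was higher in fibroblasts (log2 fold change 6.45) at a low level that peaked at the apex (12.2 ± 0.567, n = 3), and *Ednra* was lower. In the adrenergic list (9 genes, 8 tested) 0 were higher and 3 lower (*Adra1a* at -5.44, *Adra2b* at -5.69 and *Adra2a*), and its median log2 fold change was -4.38 against -0.03 over all genes. *Adra1d*, *Adra2a* and *Adra2b* were at most at 0.520 in any fibroblast cluster. *Adra2a* and *Adra2b* passed the filter on low counts mainly through mural cells, so a negative median was in part built in. Of protease-activated receptors and thrombin genes (7, with 5 tested) *F2rl3* (6.98) and *Thbd* (2.49), which binds thrombin, were higher, *F2rl3* at 73.5 ± 21.2 at the apex and *Thbd* at 888 ± 215.5 in the middle to apex cluster. *Tbxas1* (3.82), the thromboxane synthase, and *Ptgis* (1.72), the prostacyclin synthase, were higher among 4 genes, all tested.

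In the purinergic list (18 genes, 15 tested) 0 were higher and 2 lower, *P2rx1* and *P2rx5* (-7.04). Of the sphingosine 1-phosphate list (9 genes, 8 tested) *S1pr2* was higher (3.36), at 37.1 to 133.1 in fibroblast and 11.2 to 23.3 in mural clusters, and *S1pr3* lower. Among Gq and G12 effectors (18, all tested) *Itpr3* was higher (5.41) and *Rock1* (-2.06) and *Itpr1* (-1.94) lower. The list of cGMP signalling, the pathway by which nitric oxide relaxes SMC, had 5 of 8 genes lower, with *Gucy1b1* at -3.35, *Gucy1a1* at -2.37 and *Prkg1* at -4.97, and 1 higher, *Npr1* at 2.92. *Gucy1b1*, a subunit of the nitric oxide receptor, was at 538 ± 39.1 in pericytes (n = 2) and 340.8 ± 95.96 in vascular SMC (n = 3). Of 19 other vasoactive receptors (17 tested) *Bdkrb1* was higher (4.32) and *Avpr1a* (-1.91) and *Vipr1* (-6.51) lower. Between pericytes and vascular SMC, the genes of these lists that passed in edgeR were *Ednrb*, *Agtr1a* and *P2rx1*, while DESeq2 called 7 of the 10 genes followed.

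Sums of a line paired across the classes, and with the line as a block, where 3.08% of all genes passed, 10 of the calls on the list genes were lost, at an adjusted p of 0.0883 for *Edn1*, 0.0838 for *Adra2b*, 0.0562 for *Thbd*, 0.148 for *Tbxas1*, 0.138 for *P2rx5*, 0.0774 for *Itpr1*, 0.0838 for *Npr1*, 0.0801 for *Vipr1*, 0.0881 for *Bdkrb1* and 0.111 for *Avpr1a*. Without PdgfrbGFP the calls of *Ptgis*, *Itpr3*, *Rock1*, *Prkg1* and these 10 were lost, and leaving out each other line lost between 4 and 9 of them (highest adjusted p = 0.219, for *Ptgis*). *Adra1a*, *F2rl3*, *S1pr2*, *Gucy1b1* and *Gucy1a1* passed in all alternatives run. *Adra2b*, *P2rx5* and *Vipr1* averaged below 1 in every fibroblast cluster, and *Edn1*, *F2rl3* and *Itpr3* in every mural cluster, so these passed the filter on low counts mainly through the other class and a difference was built in. With no block, the adjusted p of these named genes ran from 0.000467 (*Gucy1b1*) to 0.0418 (*Tbxas1*).

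Likeness of pattern was measured by Pearson's r of log2(level + 1) over the 21 sums of cluster and line, which share lines and plates, among 10398 genes with a mean level of at least 5. The genes most like *Ednra* were *4933431K23Rik* (0.93), its antisense neighbour, *Pde4b* (0.92) and *9530026P05Rik* (0.92). For *Ednrb* they were *Rgs3* (0.87), *Id1* and *Emid1* (0.85 each), for *Agt* *Sall1* (0.91), *Otulinl* (0.90) and *Ptprr* (0.89), and for *Agtr1a* *Fap* (0.91), *Aspa* (0.87) and *Pcdh19* (0.84). Among the genes most like *Adra2a* were *Lamc3* (0.97) and *Cyp4b1* (0.95), and *F2r* was most like *Tox* (0.89), *Arhgap28* (0.87) and *Tmem176b* (0.86). For *Tbxa2r* they were *Plpp7* (0.82), *Gpr146* (0.81) and *Zfp503* (0.78), for *P2rx1* *Grip2*, *Depp1* and *Tcap* (0.90 each), and for *S1pr3* *Adamts15*, *Etl4* (0.89 each) and *Cystm1* (0.87). *Adra1d* was most like *Rergl* (0.90), *Lrrc10b* (0.81) and *Tcap* (0.77), with Spearman's rho of only 0.22, 0.49 and 0.17. With Spearman's rho in place of r, 2 of the 3 genes stayed among the top 3 for *Ednra* and for *F2r*, all 3 for *Ednrb* and 0 for the other 7.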

How the data were processed

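Single-cell counts of 1646 colon cells (SmartSeq2, HiSeq3000, no molecular identifiers) were analysed. The authors demultiplexed reads with bcl2fastq, trimmed adapters, mapped to GRCm38 (mm10) with TopHat2 using Bowtie or Bowtie2, removed what the methods call doublets with samtools, counted reads with featureCounts (Subread), and deposited raw counts per gene and cell. They had removed cells expressing neither *Pdgfra* nor *Pdgfrb*, cells with endothelial or immune signatures, and cells with very many genes, and no doublet caller was run here. Of 46609 rows, 92 ERCC spike-ins (1.36% of counts) were left out.

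Groups came from the labels (line, plate, cluster). Raw counts were summed per class or cluster and line with at least 10 cells, scaled by TMM, and passed through filterByExpr, and the quasi-likelihood test of edgeR was run with Benjamini-Hochberg adjustment over all genes and a threshold of 0.05. SE was taken as the absolute log2 fold change over the root of F. Fibroblasts had 4 sums and mural cells 3, and the fits of mural and of fibroblast clusters shared 1 spread each. Line comparisons used plates. The study's test took cells as replicates. Intervals (95%) and floors (3 counts) cover counting error only. Thinned shares left out 11 cells below 50000 counts.

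Named were all 10 genes, per pathway list up to 4 others with the largest log2 fold change past the threshold in fibroblasts against mural cells and up to 2 in pericytes against vascular SMC, and the 3 genes most like each. Members and lists were chosen with earlier results of these data known. The alternatives were DESeq2, no low-count filter, a block for the line, sums from at least 3 cells, plates as samples, mean log2(count per 500000 + 1) with limma, and each line (or plate) left out. Deviations of fibroblast and mural sums of the same line, from the shared label, correlated at 0.152 (Acta2GFP), 0.1664 (Cspg4dsRED) and 0.175 (PdgfrbGFP). Some items named by this rule are not reported here. The tests were checked on simulated data. Versions were edgeR 4.0.16, DESeq2 1.42.0 and limma 3.58.1 in R 4.3.3, and pandas 2.3.3, scipy 1.17.1, numpy 2.4.6 and matplotlib 3.10.9 in Python 3.11.15.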

Additional observations from a re-analysis of the deposited data

Results flagged for a closer look

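The mean level of *Ednra* over all fibroblasts of a line was 210 in PdgfraGFP and between 121.1 and 125.9 in the other 3 lines, a gap that passed Dixon's 95% value for 4 samples (ratio 0.945). Of 20 groups of 4 lines tested it was the only one to do so, and chance passes about 1 in 20. PdgfraGFP also held 26 of the 45 middle to apex fibroblasts, the cluster with the highest *Ednra* level, and the part of this in the gap was not tested. Within crypt base fibroblasts PdgfraGFP was the lowest line for *Ednra*, at 1.25 against 13.8 in PdgfrbGFP and 18.7 in Acta2GFP.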

How the results depend on the processing

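Of the alternative results for the called genes among the 10, 84.5% stayed past the threshold, 15.5% did not and 0 turned direction. Results not past it were followed only where their adjusted p in edgeR was at most 0.15, and for *Ednra* in pericytes against vascular SMC. Among these, 3 turned direction: *Ednra* in pericytes against vascular SMC under limma (-0.41) and without Cspg4dsRED (-0.35, the range leaving out a line being -0.35 to 0.76), and *Agt* in middle to apex against middle fibroblasts under limma (0.10, from -3.27). The remaining results not past it were not checked for a turn. The causes were not tested. The number of the 10 genes called changed by over 1.5 times in these cases. For pericytes against vascular SMC (3 genes) it was 7 with DESeq2, 6 with no filter on low counts, 5 with plates and 2 to 6 leaving out a line. For interstitial against vascular SMC (4) it was 2 with the line as a replicate block and 5 to 6 leaving out a line. For pericytes against interstitial SMC (1) it was 4 with DESeq2, 5 with no filter, 4 with at least 3 cells, 3 with plates, 2 with limma and 3 to 6 leaving out a line. For apex against crypt base (5) it was 3 to 5 leaving out a line, the 3 without PdgfrbGFP. For base to middle against crypt base (1) it was 2 with DESeq2, 0 with limma and 0 to 1 leaving out a line. For middle against base to middle (0) it was 1 with DESeq2, with no filter and with the replicate block, 2 with plates, and 0 to 1 leaving out a line. For middle to apex against middle (2) it was 5 with DESeq2 and with plates, 1 with at least 3 cells and with limma, and 0 to 3 leaving out a line. For apex against middle to apex (1) it was 2 with DESeq2, with the replicate block and with plates, 4 with limma, and 0 to 2 leaving out a line.

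Over all genes the share called in fibroblasts against mural cells was 6.57%, or 3.08% with the replicate block, and 1.81% to 16.1% over all alternatives. The ranges were 0.2997% to 5.92% for pericytes against vascular SMC (0.668%), 0.784% to 5.89% for interstitial against vascular SMC (1.04%), 0.349% to 4.46% for pericytes against interstitial SMC (0.600%), 1.22% to 11.3% for apex against crypt base (5.46%), 0% to 1.22%, 0.0299% to 2.84%, 0.135% to 10.4% and 0.125% to 11.9% for the 4 steps in order from the base (0.0370%, 0.412%, 1.86% and 2.10%), and 0% to 0.398% and 0% to 2.22% for the line comparisons (0.00% each). Under limma the share of calls higher in the first group was 59.3% against 48.8% for fibroblasts against mural cells, 16.9% against 39.4% for pericytes against vascular SMC, 72.97% against 38.2% for interstitial against vascular SMC, 15.7% against 72.4% for pericytes against interstitial SMC, and 19.2% against 100%, 55.6% against 21.9% and 61.2% against 72.5% for the steps to the base to middle, to the middle to apex and to the apex cluster. With DESeq2 it was 86.1% for the step from the crypt base and 48.7% against 60.3% for the step to the middle. With the line as a block it was 50% for the step from the crypt base. The shares under the other settings are not reported here. Fibroblast clusters of a line correlated at 0.0415 to 0.223 and share only a line, and pericytes and vascular SMC at 0.1497 and 0.157 in 2 pairs. A sum of at least 3 cells changed nothing in fibroblasts against mural cells, and comparisons with interstitial SMC could not be fitted without Acta2GFP.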

Other observations

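Along the fibroblast order, other genes of the pathway lists differed between apex and crypt base, here named after their values were seen, in a comparison where 5.46% of all genes passed. Of the endothelin list (6 tested), *Ece1*, the enzyme that releases endothelin, passed with both receptors, at 689 at the apex and 148.96 at the crypt base. *Ace*, the angiotensin-converting enzyme, was lower at the apex (0.906) than at the crypt base (33.1), as was *Agtr1a*, whereas *Agt* was higher. *F3*, tissue factor, was higher at the apex (345.7 against 117.3), as was *F2rl3*, and *Thbd* was lower (70.04 against 317.5). *P2ry1* (181.6 against 23.8) and *Sphk1* (82.999 against 6.61), the kinase that makes sphingosine 1-phosphate, were higher. Of 8 cGMP genes 3 were higher at the apex (*Gucy1a1*, *Gucy1b1* and *Pde5a*) and 0 lower. Of 18 Gq and G12 effectors 0 were higher and 3 lower (*Plcb4*, *Rhoa* and *Itpr2*), with a median log2 fold change of -0.66 against 0.03 over all genes. The 12 dissociation genes summed to 12898 at the apex and 3902 at the crypt base, and their part in these differences was not tested.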
